A study of Drosophila melanogaster with 26 samples.

Results

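Wild types that carry different fluorescent tags were compared in early Drosophila melanogaster embryos by RNA sequencing: 6 libraries of day 2 whose genotype is labelled H2B-EGFP, and 3 libraries of day 1 labelled sfGFP-ZLD. They are 9 of the 26 libraries of a series on the transcription factor Zelda and its zinc fingers. The other 17 libraries are of the genotypes Zf5, labelled mNG-ZF5 GLC (3 of day 1 and 6 of day 2), and Zld294 (8 of day 3), and are used below only to place single genes. Per the labels, each sample held total RNA of 3 embryos picked at nuclear cycles 13 to 14. The genotype label and the day change together between these groups, so effects of strain, tag and day cannot be told apart. The labels name replicates but not separate crosses or cages, so p-values measure the spread between these samples. In whole embryos, fewer cells of a type and less RNA per cell also cannot be told apart.

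Zelda, encoded by zld, is a zinc finger protein that binds early enhancers and opens them as the zygotic genome is activated. At this stage maternal transcripts are being cleared while zygotic transcription starts, so that RNA levels of many genes change within minutes of development. H2B-EGFP is a histone H2B fused to a green fluorescent protein, commonly used to mark nuclei, and sfGFP-ZLD denotes Zelda tagged with superfolder GFP. Fly stocks kept apart also differ in natural variants, transposon insertions and gene copies, some of which switch single genes on or off.

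The deposited values are TPM, transcript abundances corrected for transcript length and scaled to 1000000 within a library. Of 14220 listed genes, 7160 had at least 1 TPM in 3 or more of the 9 libraries and were tested with limma on log2(TPM + 1), with Benjamini-Hochberg adjustment and a threshold of 0.05. A gene past it is named called. Differences are log2 values of H2B-EGFP minus sfGFP-ZLD, and coordinates are those of BDGP6.54 in Ensembl release 115. Each library had 8523 to 10068 genes above 0 and 6823 to 7058 at 1 TPM or more. No library duplicated another: 0 genes above 0 had identical values in the most similar pair, H2B-EGFP replicates 2 and 4 (Pearson's r = 0.991 across genes).

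Embryos of both groups carried the transcripts that mark cellularisation, but in very unequal amounts. The gene slam, needed for membrane growth between the nuclei, ran from 363 to 4346 TPM over the 9 libraries. Sry-alpha, another cellularisation gene, ran from 9.19 to 1656 TPM, bnk from 18.6 to 1248 TPM and nullo from 7.49 to 307 TPM. The pair-rule genes eve (3.13 to 119 TPM) and ftz (1.002 to 121 TPM) were spread as widely. For slam, Sry-alpha and bnk the lowest library was H2B-EGFP replicate 3 and the highest sfGFP-ZLD replicate 3.

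A stage score was taken in each library as the mean log2(TPM + 1) of an early zygotic list (44 genes found) minus that of a maternal list (40 genes found). It is an ordering by transcripts, and its relation to time was not measured. In H2B-EGFP replicates 1 to 6 the score was -2.85, -3.69, -5.21, -4.41, 0.37 and -1.35. In sfGFP-ZLD replicates 1 to 3 it was -1.17, -2.96 and 1.29. The means were -2.86 ± 2.06 (SD, n = 6) in H2B-EGFP and -0.95 ± 2.13 (SD, n = 3) in sfGFP-ZLD, and the ranges overlapped. Scores lay close together in H2B-EGFP replicate 1 and sfGFP-ZLD replicate 2, and in H2B-EGFP replicate 6 and sfGFP-ZLD replicate 1, which gives pairs of libraries at nearly equal score across the groups.

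**Figure D1:**
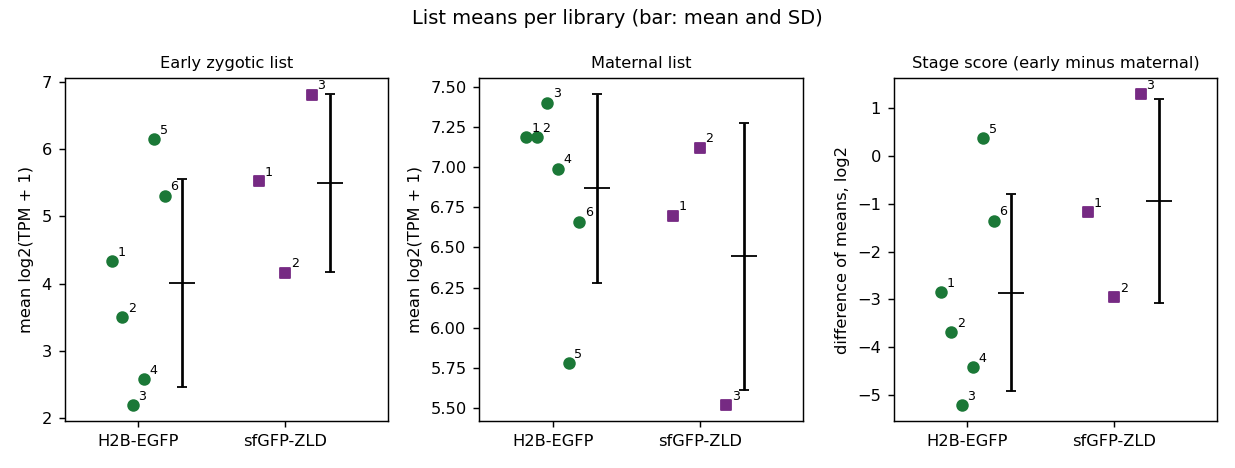
Mean log2(TPM + 1) of the early zygotic list, of the maternal list, and their difference (the stage score) in each library of H2B-EGFP (green circles, n = 6) and sfGFP-ZLD (purple squares, n = 3), with replicate numbers beside the points. Horizontal marks and bars are the mean and SD; the score runs from -5.21 to 0.37 in H2B-EGFP and from -2.96 to 1.29 in sfGFP-ZLD, so the groups overlap.

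The tagged genes were examined first. The zld transcript was at 912, 1013, 909, 967, 915 and 900 TPM in H2B-EGFP replicates 1 to 6, and at 1344, 1343 and 914 TPM in sfGFP-ZLD. The third sfGFP-ZLD library lay within the H2B-EGFP range. The difference was -0.34 (SE 0.13, limma adjusted p = 0.152), and -0.43 (SE 0.12, limma adjusted p = 0.0239) with the stage score as a covariate. The histone H2B genes stand in many near-identical copies: 23 were tested in only 7 distinct value patterns, with up to 9 copies sharing 1 set of values, so reads cannot be assigned to single copies. Their summed level was 101 TPM at the lowest, 188 at the median and 266 at the highest in H2B-EGFP, against 99.7, 72.9 and 148 TPM in sfGFP-ZLD, and 0 of the 23 copies were called, against 8.2% of all genes tested.

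Another histone gene did differ. His2Av, which encodes the single H2A variant of flies and lies on chromosome 3R from 26866929 to 26869220, was at 711, 857, 792, 698, 1183 and 985 TPM in H2B-EGFP, against 2517, 2206 and 3245 TPM in sfGFP-ZLD. Every H2B-EGFP library was below every sfGFP-ZLD library. Its level fell by 1.61 (SE 0.19, limma adjusted p = 0.0021), and by 1.38 (SE 0.11, limma adjusted p = 0.000202) at equal score. In Zf5 it was at 146 to 1061 TPM on day 2 and 1380 to 1918 TPM on day 1. Within Zf5 the difference of day 2 minus day 1 was -1.43 (SE 0.58) and not called (limma adjusted p = 0.856). The day 2 minus day 1 difference of wild type minus that of Zf5 was -0.18 (SE 0.65, limma adjusted p = 0.994). In Zld294 His2Av ran from 1024 to 1279 TPM. Day and tag cannot be told apart for the wild types.

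The gene white (w), an eye pigment transporter that marks many transgenes, was below 1 TPM in every H2B-EGFP library, at 0.0473 to 0.620 TPM, and at 2.40, 1.45 and 1.32 TPM in sfGFP-ZLD. It fell by 0.93 (SE 0.21, limma adjusted p = 0.0281). Leaving out H2B-EGFP replicate 1, 2, 4 or 6 ended the call, with differences of -0.85, -0.94, -0.93 and -0.94 and limma adjusted p-values of 0.0588 to 0.0643. With a pseudocount of 0.1 it did not pass either (limma adjusted p = 0.0681).

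Over all genes, 398 (5.56% of those tested) were higher and 189 (2.64%) lower in H2B-EGFP than in sfGFP-ZLD, 8.2% together. Most of these differences were modest. The higher genes had a median difference of 0.94, with 173 at 1 or more and 47 at 2 or more. The lower genes had a median of -1.10, with 102 at 1 or more in size and 39 at 2 or more. The groups did not overlap in 778 genes that were higher (10.9%) and 317 that were lower (4.43%), called or not. The median of all 7160 genes was 0.19, and scaling the libraries by median ratios brought it to 0.02 and gave 186 higher and 240 lower calls. The split of the calls by direction, 67.8% higher as deposited and 43.7% after scaling, therefore depends on the scaling.

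The number of calls also depended on single libraries. Without H2B-EGFP replicates 1 to 6 in turn, 267, 362, 379, 345, 1215 and 304 genes were called. Without sfGFP-ZLD replicates 1 to 3 in turn, 87, 226 and 436 were called. All 87 genes called without sfGFP-ZLD replicate 1 were among the 587, and so were 586 of the 1215 called without H2B-EGFP replicate 5.

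With the stage score as a covariate, 1458 genes were higher (20.4%) and 647 lower (9.04%) in H2B-EGFP, 29.4% together. All 587 genes called without the score remained called in the same direction, and 1518 were added. Of the 1518 added genes, 1174 also had a slope with the score past the threshold, as did 5061 of all 7160 genes tested (70.7%). Median-ratio scaling gave 902 higher and 1008 lower here, so that 47.2% rather than 69.3% of the calls were higher. Leaving out sfGFP-ZLD replicate 1 left 1137 of the 2105 calls in number, and leaving out sfGFP-ZLD replicate 2 left 646.

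The score itself accounted for more of the variation than the groups did. Among the 7079 tested genes outside the score's own lists, 2257 rose (31.9%) and 2734 fell (38.6%) with the score, 70.5% together. Over all 7160 genes tested, those of the score's lists included, the score held 59.2% of the variance and the group 15.9% in the median gene. Each share is the squared correlation of a gene with the score or the group taken alone. The score also differs between the groups and is built from these same libraries, so the shares overlap and are not separate parts. The group held more than the score in 2111 genes (29.5%) and at least 90% of the variance in 137, while the score held at least 90% in 395. Of the 587 genes called between the groups, 449 had no called slope and 138 had one, while 5061 of all 7160 genes tested (70.7%) had one. This split is fixed in part. A slope widens the spread within groups, so a gene that has one is harder to call without the score. A further 3749 genes had a called slope and were called for the group in neither fit. The plot of group difference against slope shows these sets.

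**Figure D2:**
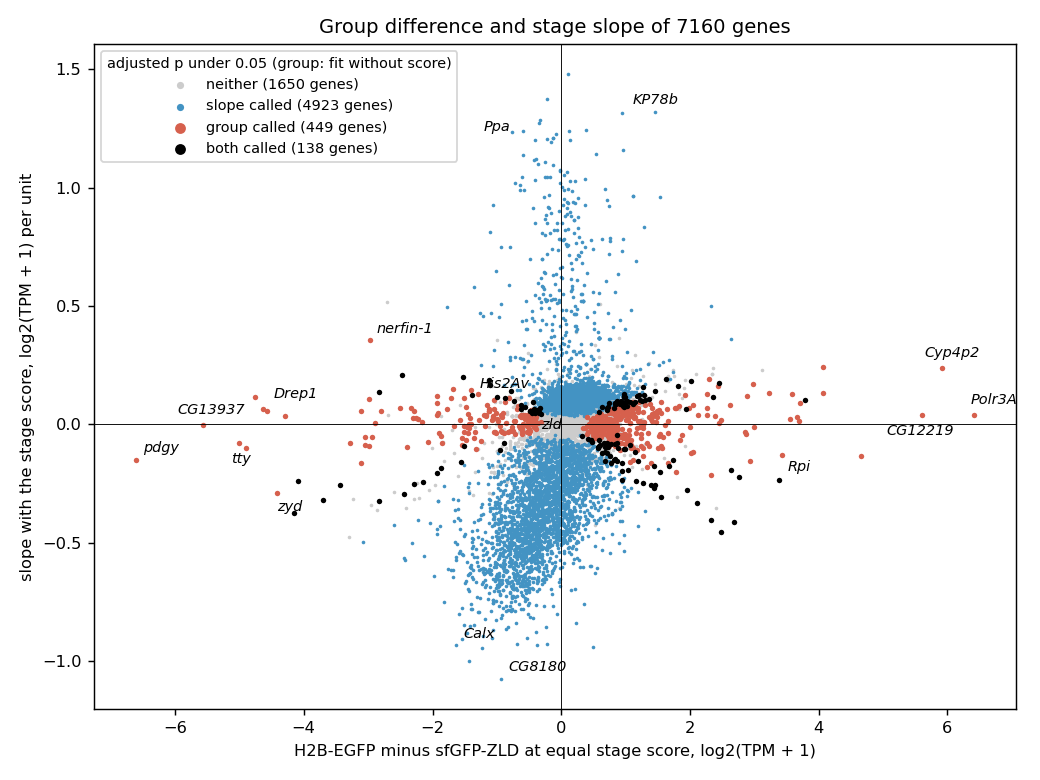
Difference between H2B-EGFP and sfGFP-ZLD at equal stage score (horizontal, log2(TPM + 1)) against the slope with the stage score (vertical, log2(TPM + 1) per unit of score) for the 7160 genes tested, the list genes included. Genes called for the group without a called slope (red, 449) lie along the horizontal axis, genes called for both are black (138), and genes with a called slope alone (blue) form the vertical arms.

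A gene was named all-or-none where every library of one group was under 1 TPM, every library of the other was at 1 TPM or more, and the mean of the group with the gene on was at least 5 TPM. This held for 26 genes (0.363%), 15 on in H2B-EGFP (0.209%) and 11 on in sfGFP-ZLD (0.154%). Because these values chose them, and each passed the filter through its on group alone, what follows describes them and tests nothing about them as a class. Of the 26, 23 were called without the score (12 and 11), all 26 with it, and 1 had a called slope. Over all genes tested, 8.2% were called without the score, 29.4% with it, and 70.7% had a called slope. The rule selects genes that separate the groups, so these counts are fixed in part. The 15 on in H2B-EGFP include the histone copies His2B:CG33902 and His2B:CG33910, which share 1 set of values. Reads cannot be assigned to either copy alone, so they are no separate cases here or in later counts over the 26. With a border of 2 TPM the numbers were 23 and 16, and with 0.5 TPM they were 10 and 6. Just inside the rule, CG5758 reached 0.977 TPM in its off group. Just outside, CG12219 reached 1.57 TPM in its off group against at least 96.8 TPM in the other.

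Of the genes on in H2B-EGFP, the strongest was Cyp4p2, a cytochrome P450 (chromosome 2R, 9237512 to 9239831). It was at 45.6, 68.2, 8.40, 55.2, 74.7 and 55.8 TPM in H2B-EGFP replicates 1 to 6 and listed at 0 in all 3 sfGFP-ZLD libraries. The fitted difference was 5.46 (SE 0.61, limma adjusted p = 0.00153). It was also low in the mutants, at 0 to 0.681 TPM in Zf5 and 0 in every Zld294 library, so H2B-EGFP alone had it above 1 TPM. The gene hig overlaps it on the other strand.

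CG12643, CG4467 and Sdic3 were likewise on in H2B-EGFP and under 1 TPM in all 20 other libraries of the series. CG12643 (chromosome X, 10264233 to 10265263) ran from 18.2 TPM over a median of 36.0 to 46.7 TPM in H2B-EGFP, against 0.139, 0.147 and 0.170 TPM in sfGFP-ZLD, and stayed at or below 0.204 TPM in Zf5 and 0.152 TPM in Zld294. Its difference was 4.91 (SE 0.30, limma adjusted p = 3.85e-05). CG4467 (chromosome 3R) ran from 5.27 over 15.4 to 37.3 TPM in H2B-EGFP, against 0, 0 and 0.919 TPM in sfGFP-ZLD, with a difference of 3.61 (limma adjusted p = 0.00862). Without sfGFP-ZLD replicate 1 that call was lost (3.46, limma adjusted p = 0.0666).

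Sdic3 and Sdic2 are neighbouring copies of a gene for a sperm dynein intermediate chain, in a tandem cluster on chromosome X. Sdic3 (20189440 to 20194227) was at 13.7, 16.7, 11.9, 14.2, 15.1 and 13.4 TPM in H2B-EGFP and at 0.499, 0.218 and 0.279 TPM in sfGFP-ZLD. Sdic2 (20181590 to 20186487) went the other way, at 0, 0, 0, 0, 0.218 and 0.620 TPM in H2B-EGFP and at 4.57, 5.48 and 5.65 TPM in sfGFP-ZLD. The fitted differences were 3.51 (SE 0.20, limma adjusted p = 2.38e-05) for Sdic3 and -2.47 (SE 0.22, limma adjusted p = 0.00032) for Sdic2. In the mutants Sdic3 reached 0.651 TPM and Sdic2 reached 1.64 TPM at most. Sdic1, chosen for mention after its values were seen, was at up to 0.746 TPM in H2B-EGFP and up to 0.663 TPM in sfGFP-ZLD, but at 0.445 to 4.46 TPM in the mutants. The copies are nearly identical in sequence, so the assignment of reads to one or another is uncertain.

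The remaining genes on in H2B-EGFP were on in some mutant libraries as well. CG4210 ran from 10.8 over 12.3 to 17.0 TPM in H2B-EGFP against 0.0933, 0.0741 and 0.340 TPM in sfGFP-ZLD, and it was the only one of the 26 with a called slope (0.10 per unit of score, SE 0.04, limma adjusted p = 0.0404). SIDL overlaps it on the other strand. In the mutants it was split between libraries, from 0 to 6.29 TPM in Zf5 and from 0 to 4.10 TPM in Zld294. CG30054 was at 5.38 to 13.1 TPM in H2B-EGFP and at most 0.232 TPM in sfGFP-ZLD, while every Zf5 library (1.45 to 4.07 TPM) and every Zld294 library (3.90 to 8.42 TPM) had it. The homeodomain gene vis, related to mammalian TGIF, showed the same pattern at lower contrast, with 2.09 to 12.1 TPM in H2B-EGFP, 0.179 to 0.226 TPM in sfGFP-ZLD, and 2.23 TPM or more in all mutant libraries.

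CG33655 was higher on day 2 than on day 1 in the wild types, where day and label change together, and in Zf5, where it was not called. It was at 4.99 to 11.4 TPM in H2B-EGFP and listed at 0 in the 3 sfGFP-ZLD libraries. Zf5 had 3.96 to 21.7 TPM on day 2 and 0 to 0.472 TPM on day 1, without overlap, and Zld294 had 0 to 2.48 TPM on day 3. The difference of day 2 minus day 1 was 2.92 in wild type (SE 0.26, limma adjusted p = 0.00032). In Zf5 it was 3.05 (SE 0.54) and not called (limma adjusted p = 0.856). Wild type minus Zf5 was -0.14 for this difference (SE 0.58, limma adjusted p = 0.995). CG33655 lies over CG9485 on the other strand, and whether the counting used strand is not given in the sources used here.

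Several of these genes varied strongly among H2B-EGFP libraries. Over the 15 genes, the highest H2B-EGFP library exceeded the lowest by 6.59-fold in the median gene, between 1.41-fold for Sdic3 and 16.9-fold for CG14218. Syt4, a synaptotagmin, was at 27.4, 12.3, 35.3, 2.84, 5.15 and 14.01 TPM in H2B-EGFP, against 0.0461, 0 and 0 TPM in sfGFP-ZLD, with a difference of 3.68 (SE 0.68, limma adjusted p = 0.0145). Zip89B, a zinc transporter, ran from 3.45 to 20.1 TPM in H2B-EGFP and reached 0.146 TPM in sfGFP-ZLD, and CG42565 ran from 4.88 to 32.2 TPM and reached 0.608 TPM. CG32857 was at 2.42 to 17.0 TPM and reached 0.470 TPM in sfGFP-ZLD. These calls lay close to the threshold: without sfGFP-ZLD replicate 1 the limma adjusted p-value was 0.0815 for Syt4, 0.0596 for Zip89B, 0.0611 for CG42565, 0.0893 for CG32857 and 0.0817 for vis. Without sfGFP-ZLD replicate 2 it was 0.0591 for Syt4, 0.0659 for CG32857 and 0.0601 for vis. Differences stayed between 2.23 and 3.70 in all of these. CG14218 (1.45 to 24.6 TPM in H2B-EGFP, at most 0.554 TPM in sfGFP-ZLD) was not called without the score (2.67, limma adjusted p = 0.063), nor were the histone copies His2B:CG33902 and His2B:CG33910, whose values were identical.

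Among genes on in sfGFP-ZLD, pdgy had the largest difference. It encodes an acyl-CoA synthetase that acts in fat storage and lies on chromosome X from 14933670 to 14953532. It was at 0.0477, 0.463, 0, 0.253, 0 and 0.141 TPM in H2B-EGFP and at 107, 155 and 44.4 TPM in sfGFP-ZLD. It fell by 6.32 (SE 0.37, limma adjusted p = 2.75e-05), and by 6.61 at equal score. All mutant libraries had it, at 11.8 to 126 TPM in Zf5 and 166 to 222 TPM in Zld294, so H2B-EGFP stood apart from the other 3 genotypes. At nearly equal score it was at 0.0477 TPM in H2B-EGFP replicate 1 and 155 TPM in sfGFP-ZLD replicate 2.

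CG14767, CG10962 and zyd were likewise under 1 TPM in H2B-EGFP alone. CG14767 (chromosome 2R, 8718017 to 8723839) reached 0.576 TPM in H2B-EGFP, against 33.7, 63.7 and 12.5 TPM in sfGFP-ZLD and at least 29.2 TPM in every mutant library. It fell by 4.70 (SE 0.43, limma adjusted p = 0.000384). CG10962 reached 0.563 TPM in H2B-EGFP, against 9.23, 6.82 and 11.2 TPM in sfGFP-ZLD and 12.7 TPM or more in the mutants. The gene rdgA overlaps it on the other strand. For zyd, a sodium and calcium exchanger that acts in glia, H2B-EGFP ran from 0.436 to 0.921 TPM and sfGFP-ZLD was at 36.6, 61.6 and 5.07 TPM, with a difference of -3.87 (SE 0.62, limma adjusted p = 0.00814). Drat, an alcohol dehydrogenase domain protein, reached 0.371 TPM in H2B-EGFP, against 11.3, 14.4 and 1.21 TPM in sfGFP-ZLD, and 16 of the 17 mutant libraries were at 1 TPM or more.

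CG13937, cry and CG34323 were on in sfGFP-ZLD and low elsewhere. CG13937 (chromosome 3L, 1876551 to 1883041) was at 0 to 0.146 TPM in H2B-EGFP and at 51.3, 52.4 and 47.1 TPM in sfGFP-ZLD, the most even level of all 26 genes, within 1.11-fold. It fell by 5.57 (SE 0.17, limma adjusted p = 4.7e-07). No mutant library exceeded 1.03 TPM. The gene cry, which encodes the blue-light receptor cryptochrome, reached 0.364 TPM in H2B-EGFP and was at 5.59, 7.58 and 9.08 TPM in sfGFP-ZLD, a difference of -2.90 (SE 0.20, limma adjusted p = 8.27e-05). Among the mutants it was at 1.53 TPM in 1 Zf5 library and stayed at or below 0.486 TPM in the other 16 mutant libraries. Its neighbour vib overlaps it on the other strand. CG34323, which lies inside Ten-a on the same strand, was at 0 to 0.398 TPM in H2B-EGFP and at 8.25, 6.80 and 14.1 TPM in sfGFP-ZLD, with at most 1.69 TPM in the mutants.

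CG5758 and nerfin-1, also on in sfGFP-ZLD, were uneven among the mutants. CG5758 was at 0.189 to 0.977 TPM in H2B-EGFP and 4.75, 6.79 and 8.11 TPM in sfGFP-ZLD. It reached 6.86 TPM in Zf5 but at most 0.154 TPM in Zld294. The neural transcription factor nerfin-1 was at 0.0473, 0, 0, 0, 0.364 and 0.0930 TPM in H2B-EGFP and 16.9, 1.60 and 52.7 TPM in sfGFP-ZLD. In both groups its highest value stood in the library of highest score and its slope was 0.35 per unit (SE 0.16, limma adjusted p = 0.0702). The group difference was -3.66 (SE 0.76, limma adjusted p = 0.0212), and without H2B-EGFP replicate 1 or 6 it was not called (-3.65 and -3.66, limma adjusted p = 0.0542 and 0.0536).

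Across the 26 genes, all Zf5 libraries were off in 4, all were on in 7 and they were mixed in 15. All Zld294 libraries were off in 11, all were on in 10 and they were mixed in 5. Thus 4 genes were on in H2B-EGFP alone among the 4 genotypes, and 4 were off in H2B-EGFP alone. Another 2, CG30054 and vis, were off in sfGFP-ZLD alone, and 0 were on in sfGFP-ZLD alone. CG13937, cry and Sdic2, on in sfGFP-ZLD, each reached 1 TPM in 1 Zf5 library and in 0 Zld294 libraries.

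**Figure D3:**
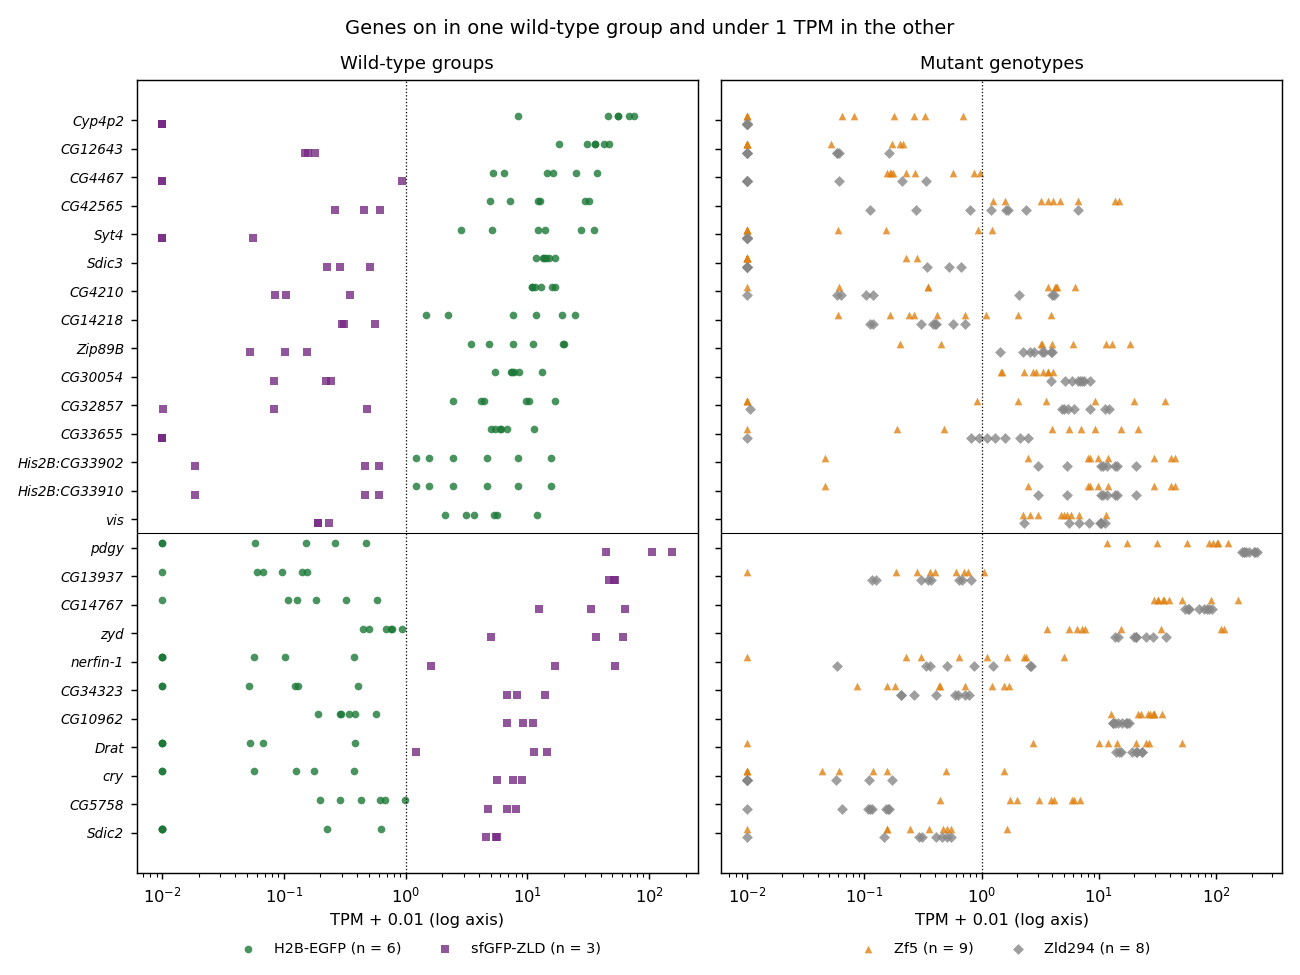
TPM (log axis, 0.01 added) of the 26 all-or-none genes in each library of H2B-EGFP (green circles) and sfGFP-ZLD (purple squares) on the left, and of Zf5 (orange triangles) and Zld294 (grey diamonds) on the right; the dotted line marks 1 TPM. Genes above the horizontal line are on in H2B-EGFP (15) and those below it in sfGFP-ZLD (11); Cyp4p2, CG12643, CG4467 and Sdic3 lie under 1 TPM in every library but those of H2B-EGFP.

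A second description, with a lowest library of at least 5 TPM and 8-fold above the highest of the other group, took in genes with a low but measurable level in the off group. It held for 21 genes (0.293%), 10 higher in H2B-EGFP and 11 higher in sfGFP-ZLD, of which 11 were also all-or-none. These genes again divide by what the mutants showed.

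Polr3A, the largest subunit of RNA polymerase III, had the largest rise of all genes tested (chromosome X, 15762956 to 15769514). It was at 150, 156, 132, 132, 108 and 150 TPM in H2B-EGFP and at 0.276, 0.435 and 1.74 TPM in sfGFP-ZLD, a difference of 6.33 (SE 0.26, limma adjusted p = 3.78e-06). Zf5 had 0.430 to 15.6 TPM and Zld294 0.246 to 2.52 TPM, so no library outside H2B-EGFP exceeded 15.6 TPM. CG8952 overlaps Polr3A on the other strand. Kebab, a kinetochore-associated protein, ran from 30.7 over 34.9 to 43.2 TPM in H2B-EGFP, against 3.19, 1.60 and 1.10 TPM in sfGFP-ZLD. It rose by 3.67 (SE 0.25, limma adjusted p = 8.27e-05), and the mutants lay between 1.28 and 16.7 TPM.

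CG12219, Mfe2 and CG6567 had their lowest values of the series in sfGFP-ZLD. CG12219 (chromosome X, 6299054 to 6301285) was at 124, 104, 96.8, 98.3, 103 and 113 TPM in H2B-EGFP and at 1.57, 0.947 and 1.49 TPM in sfGFP-ZLD, and rose by 5.53 (SE 0.17, limma adjusted p = 4.7e-07). Zf5 had 19.7 to 185 TPM and Zld294 80.9 to 93.8 TPM. Mfe2, a multifunctional enzyme of peroxisomal fatty acid oxidation, ran from 34.1 over 41.5 to 45.3 TPM in H2B-EGFP, against 2.80, 2.06 and 2.53 TPM in sfGFP-ZLD, and no mutant library was below 13.8 TPM. It rose by 3.61 (SE 0.19, limma adjusted p = 1.54e-05) and overlaps kat80 on the other strand. CG6567 ran from 24.3 over 50.2 to 67.9 TPM in H2B-EGFP, against 1.72, 2.50 and 2.21 TPM in sfGFP-ZLD, with 4.96 to 35.9 TPM in Zf5 and 27.9 to 59.4 TPM in Zld294.

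Rpi, ribose-5-phosphate isomerase of the pentose phosphate pathway, was the only 1 of the 10 largest rises outside both descriptions. It was at 129, 127, 138, 115, 78.6 and 108 TPM in H2B-EGFP and at 7.06, 15.9 and 2.88 TPM in sfGFP-ZLD, and rose by 3.83 (SE 0.40, limma adjusted p = 0.000922). It was also among the genes that fell with the score, by 0.23 per unit (SE 0.07, limma adjusted p = 0.0108), so its difference was 3.38 at equal score. All mutant libraries had at least 24.4 TPM.

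Of the genes lower in H2B-EGFP by the 8-fold description, Drep1 was the most abundant. It belongs to the family of DNA fragmentation factors and was at 10.4, 6.54, 9.58, 6.98, 9.40 and 7.17 TPM in H2B-EGFP and at 247, 193 and 325 TPM in sfGFP-ZLD. It fell by 4.76 (SE 0.23, limma adjusted p = 1.22e-05), and the mutants had 29.6 to 264 TPM. The gene tty, a chloride channel of the tweety family, ran from 2.29 over 3.11 to 6.35 TPM in H2B-EGFP, against 138, 204 and 76.3 TPM in sfGFP-ZLD, a difference of -4.86 (SE 0.37, limma adjusted p = 0.000163). Asph, an aspartyl beta-hydroxylase, reached 4.23 TPM in H2B-EGFP, against 78.6, 66.7 and 63.9 TPM in sfGFP-ZLD, and fell by 4.98 (SE 0.43, limma adjusted p = 0.00032). Zf5 was split in Asph, between 0.579 and 66.0 TPM.

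CG11200 reached 1.67 TPM in H2B-EGFP and was at 39.3, 32.9 and 54.2 TPM in sfGFP-ZLD, and fell by 4.36 (SE 0.24, limma adjusted p = 2.15e-05). In Zf5 it had 2.95 to 24.5 TPM on day 2 and 0.811 to 3.00 TPM on day 1. CG34334, which meets neither description, was at 0.242 to 1.30 TPM in H2B-EGFP and at 8.53, 53.1 and 127 TPM in sfGFP-ZLD, with a difference of -4.68 (SE 0.69, limma adjusted p = 0.00564). It overlaps CG42346 on the same strand. The antiviral gene pst, which the 8-fold rule takes in, was at 0.591 to 1.45 TPM in H2B-EGFP, 14.03, 17.9 and 11.7 TPM in sfGFP-ZLD, and 15.1 TPM or more in every mutant library.

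**Figure D4:**
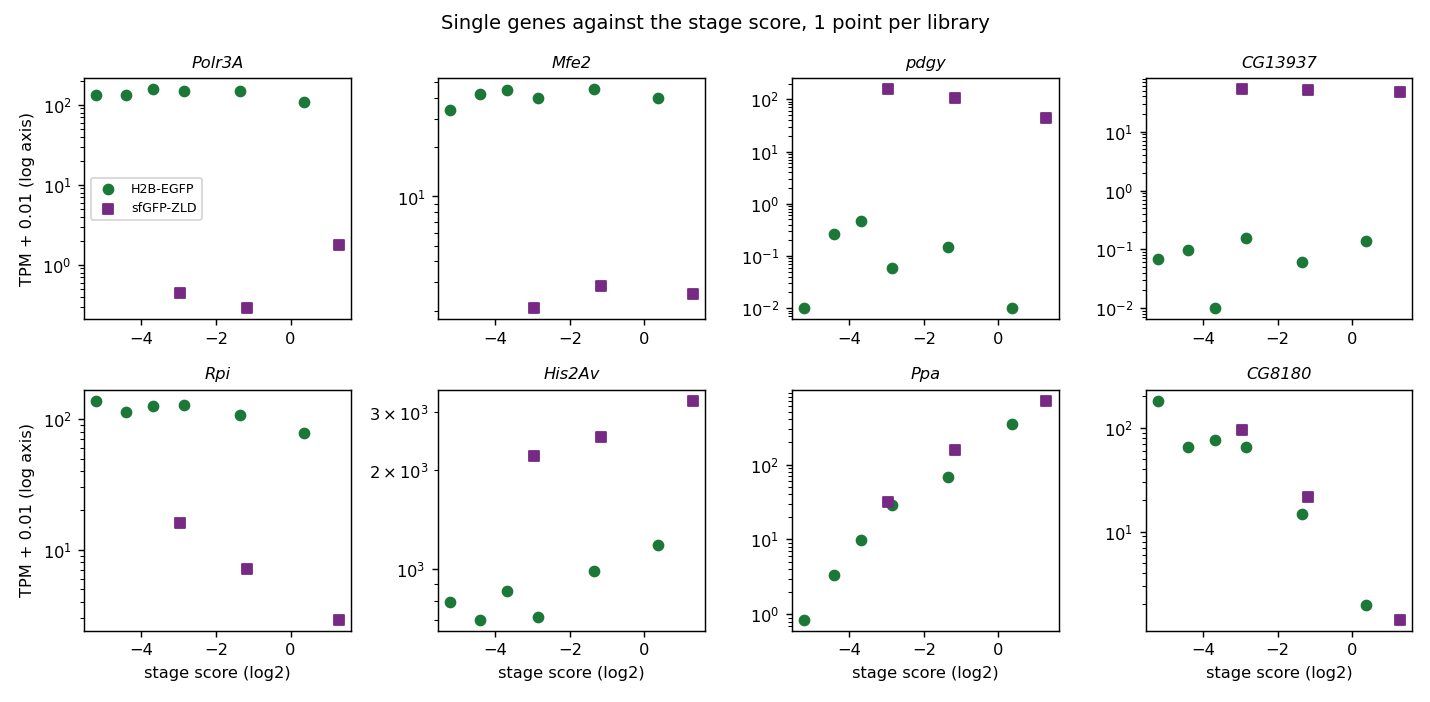
TPM (log axis, 0.01 added) against stage score in each library of H2B-EGFP (green circles, n = 6) and sfGFP-ZLD (purple squares, n = 3) for 8 genes. Polr3A, Mfe2, pdgy and CG13937 separate the groups without overlap, though no sfGFP-ZLD library lies below a score of -2.96. Rpi and His2Av combine a gap with a slope, and Ppa and CG8180 vary along the score in both groups.

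The genes with the steepest slopes varied widely within each group. Ppa, an F-box protein, was at 28.6, 9.87, 0.835, 3.32, 347 and 67.5 TPM in H2B-EGFP and at 158, 31.7 and 704 TPM in sfGFP-ZLD. It rose by 1.24 per unit of score (SE 0.07, limma adjusted p = 4.46e-05), and the group difference at equal score was -0.60 (SE 0.31, limma adjusted p = 0.178). At nearly equal score the values were 28.6 TPM in H2B-EGFP replicate 1 and 31.7 TPM in sfGFP-ZLD replicate 2. The range within H2B-EGFP exceeded the difference between the group means, 76.2 ± 135 TPM (SD, n = 6) in H2B-EGFP and 298 ± 357 TPM (SD, n = 3) in sfGFP-ZLD.

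Besides Ppa, the steepest rises outside the score's own lists were in the neighbouring kinase genes KP78b (1.32 per unit, SE 0.10) and KP78a (1.24, SE 0.09), in Ptr (1.28, SE 0.19), a Patched-related gene, in CG10035 (1.27, SE 0.10), and in phyl (1.24, SE 0.08), an adaptor for protein degradation that acts in cell fate choice. KP78a and KP78b are annotated over the same span, so their reads are hard to separate, and pros overlaps both on the other strand. In phyl, H2B-EGFP was at 4.54, 0.688, 0.0563, 0, 75.7 and 19.2 TPM and sfGFP-ZLD at 28.9, 2.04 and 145 TPM. None of the 6 was called for the group in either fit, beside 8.2% of all genes tested without the score and 29.4% with it. These genes were chosen for steep slopes, which make a call without the score harder, so this count is fixed in part. In the opposite direction CG8180 fell by 1.07 per unit (SE 0.09, limma adjusted p = 0.000125), with 65.1, 76.0, 181, 65.5, 1.95 and 14.9 TPM in H2B-EGFP and 21.8, 95.3 and 1.41 TPM in sfGFP-ZLD. CG12945, CG4991, CG7627, CG6927 and Calx, a sodium and calcium exchanger, had slopes of -0.93 or steeper, all below that of CG8180 in size. Group differences at equal score were negative in all 6 falling genes and not called, against 29.4% of all genes called in that fit. Calx came closest (-1.64, SE 0.57, limma adjusted p = 0.059), followed by CG12945 (-1.44, SE 0.58, limma adjusted p = 0.0958) and CG4991 (-1.24, SE 0.51, limma adjusted p = 0.101). Among the rising genes the difference was furthest above 0 in KP78b (0.94, SE 0.41, limma adjusted p = 0.118).

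The lists that define the score showed the spread most plainly. Of 41 early zygotic genes tested, 0 were called between the groups, beside 8.2% of all genes. Their median difference was nevertheless -1.62, against 0.19 for all genes. At equal score their median was -0.14, against 0.05 for all genes, and 39 rose with the score, a relation the score fixes in part since these genes make it up. With the score as covariate 4 of the 41 were called, against 29.4% of all genes in that fit: sog, an inhibitor of Dpp signalling, was higher in H2B-EGFP (1.46, SE 0.29, limma adjusted p = 0.00761), and the pair-rule genes h (-0.96) and prd (-1.11) and the gastrulation ligand fog (-0.96) were lower, with limma adjusted p-values of 0.0114, 0.0225 and 0.0183. In prd, H2B-EGFP had 0.0879 TPM at the lowest, 2.71 at the median and 23.2 at the highest, and sfGFP-ZLD 23.4, 8.71 and 76.6 TPM.

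Of 40 maternal genes, 3 were higher and 2 lower in H2B-EGFP, against 5.56% higher and 2.64% lower over all genes, with a median of 0.37 over the list. The receptor gene tor had the firmest difference. It was at 256, 241, 215, 226, 238 and 256 TPM in H2B-EGFP and at 143, 156 and 129 TPM in sfGFP-ZLD, and rose by 0.74 (SE 0.10, limma adjusted p = 0.00421), with a slope of 0.00 per unit of score (SE 0.02). The others were plu, which acts in the early nuclear cycles (0.99, SE 0.22, limma adjusted p = 0.0256), the translational repressor me31B (0.43), the receptor gene Tl (-0.59) and the piRNA factor aub (-0.70, SE 0.17, limma adjusted p = 0.0386). In plu, H2B-EGFP ran from 31.9 over 44.4 to 46.5 TPM and sfGFP-ZLD was at 22.6, 26.5 and 15.04 TPM. Its call was lost without H2B-EGFP replicate 2, 3, 4 or 6 or sfGFP-ZLD replicate 1 or 3 (0.77 to 1.05, limma adjusted p up to 0.111) and after median-ratio scaling (0.82, limma adjusted p = 0.0623). The call of aub was lost without H2B-EGFP replicate 1, 3, 4 or 6 or any one of the sfGFP-ZLD libraries (-0.75 to -0.66, limma adjusted p up to 0.142).

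Of the 28 genes of late cycle 14 and gastrulation, 10 were expressed enough to be tested and 0 were called (median -0.71), beside 8.2% of all genes. Of 17 cell cycle genes tested, 0 were called between the groups, beside the same 8.2%. With so few genes, neither count stands apart from that share. At equal score 3 of the 17 were, against 29.4% of all genes. Cdk1 was higher (0.41, limma adjusted p = 0.0418) and CycE (-0.72) and the checkpoint kinase gene mei-41 (-1.49) were lower, with limma adjusted p-values of 0.0209 and 0.0099.

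Among 15 detoxification genes tested, 1 was higher and 1 lower, both glutathione S-transferases, beside 8.2% called over all genes. GstE1 was at 24.8, 27.0, 21.7, 15.1, 40.8 and 39.8 TPM in H2B-EGFP and at 107, 78.9 and 128 TPM in sfGFP-ZLD, and fell by 1.91 (SE 0.32, limma adjusted p = 0.0102). Without sfGFP-ZLD replicate 1 it was not called (-1.88, limma adjusted p = 0.0727). GstE9 ran from 1.79 over 2.88 to 4.31 TPM in H2B-EGFP, against 0.140, 0.369 and 1.06 TPM in sfGFP-ZLD, and rose by 1.36 (SE 0.28, limma adjusted p = 0.0218). It was not called without H2B-EGFP replicate 1 or sfGFP-ZLD replicate 1 or 2 (1.17 to 1.31, limma adjusted p up to 0.136).

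Of 9 heat shock genes and 13 genes encoded by mitochondria tested, 1 each was called, beside 8.2% over all genes. The heat shock gene was Hsp68, lower at 0.745 to 2.49 TPM in H2B-EGFP and 2.45, 5.24 and 8.19 TPM in sfGFP-ZLD (-1.31, SE 0.34, limma adjusted p = 0.048). Its call was lost on leaving out any library but H2B-EGFP replicate 5 (-1.69 to -0.98, limma adjusted p up to 0.137). The mitochondrial gene was mt:ND3, a subunit of respiratory complex I, at 26.4, 28.4, 38.4, 52.3, 34.5 and 50.8 TPM in H2B-EGFP and 118, 78.0 and 172 TPM in sfGFP-ZLD. It fell by 1.62 (SE 0.31, limma adjusted p = 0.0154), with a median of -0.11 over the 13, and was not called without sfGFP-ZLD replicate 1 (-1.62, limma adjusted p = 0.0893).

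Markers of follicle cells, adult and larval tissue, immune effectors and the Y chromosome were low in both groups. Summed over 22 follicle cell genes found, TPM was 0.209 to 1.52 in H2B-EGFP and 0.318 to 1.52 in sfGFP-ZLD. Over 17 genes of adult and larval tissue it was 0.283 to 1.53 in H2B-EGFP and 1.87 to 7.30 in sfGFP-ZLD, without overlap, with Fbp1 the highest single gene at 6.01 TPM. Over 20 immune effectors it was 0.627 to 1.09 in H2B-EGFP and 0.743 to 1.95 in sfGFP-ZLD, and over 11 Y-linked genes at most 0.0629 TPM in either group. None of these genes reached the filter. Transcripts of 8 pole cell genes, all tested, summed to 378 to 1822 TPM in H2B-EGFP and 409 to 1494 TPM in sfGFP-ZLD, and 1 was called (aub). The 8 hemocyte genes found summed to 50.9 to 258 TPM in H2B-EGFP and 55.1 to 169 TPM in sfGFP-ZLD, with the phagocytic receptor gene crq the highest single gene at 253 TPM and eater listed at 0 in all 9 libraries, and 0 of the 2 tested were called. Over all genes tested 8.2% were called. The part of any such transcripts in the differences above was not tested.

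The Zf5 genotype, labelled alike on days 1 and 2, gives the only comparison of those days within 1 label. Between its 6 libraries of day 2 and 3 of day 1, limma called 0 of 7908 genes (0%), with 394 at an unadjusted p under 0.05 and a lowest adjusted p of 0.856. This comparison shares no library with the wild types. Zf5 of day 2 was itself spread widely, from 8139 to 12165 genes above 0.

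The day 2 minus day 1 difference of wild type was then tested against that of Zf5 over 18 libraries. It differed in 39 of 8151 genes (0.478%), with 19 larger and 20 smaller in wild type. The test uses the same 9 wild-type libraries as the comparison of H2B-EGFP with sfGFP-ZLD, and 38 of the 39 genes were also called there. It is therefore no independent support for those calls. The smallest adjusted p-values were those of CG13937 (wild type minus Zf5 -5.69, SE 0.34, limma adjusted p = 5.44e-08), CG12643 (4.92, SE 0.39, 1.76e-06), Sdic3 (3.40, SE 0.30, 6.55e-06), CG11200 (-6.79, SE 0.71, 6.3e-05), CG12219 (5.52, SE 0.68, 0.000469), and Cyp4p2 (5.47, SE 0.69) and cry (-3.19, SE 0.40), tied at a limma adjusted p of 0.000549. Of these, CG13937, CG12643, Sdic3, Cyp4p2 and cry did not pass the filter within Zf5. They entered this test through the wild-type group that had them on, so in them the term largely repeats the wild-type difference. Polr3A, with 6.33 in wild type and 0.18 in Zf5, also differed (6.15, SE 0.91, limma adjusted p = 0.00195). CG11200 had differences of opposite sign, -4.36 in wild type and 2.42 in Zf5, where the difference was not called.

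**Figure D5:**
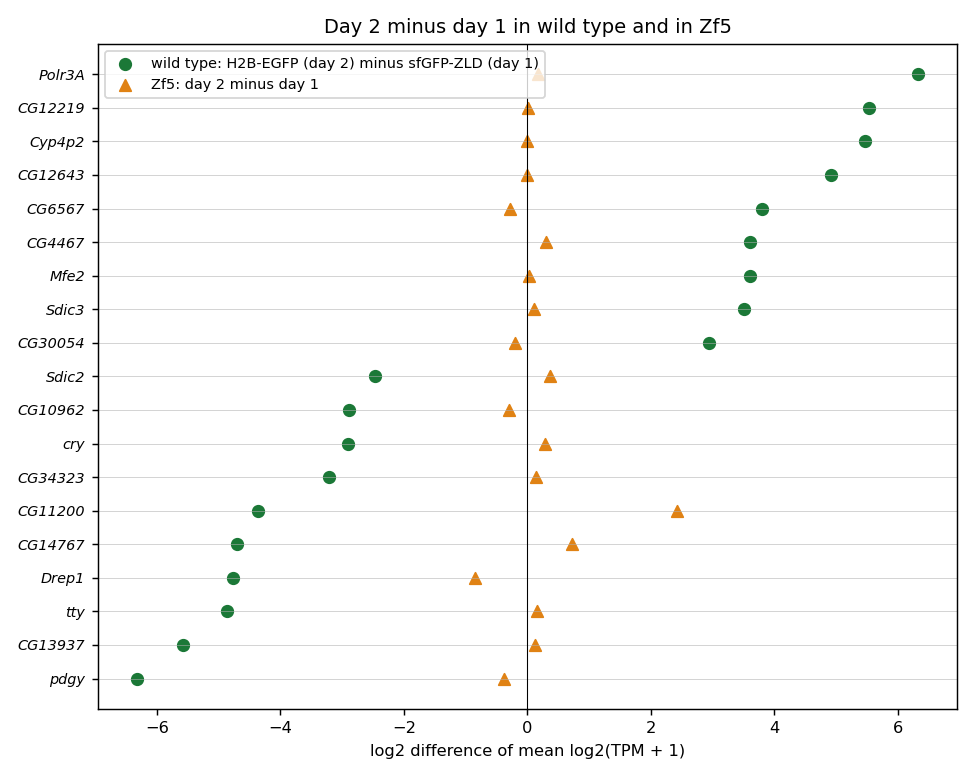
Difference of mean log2(TPM + 1), day 2 minus day 1, in wild type (green circles, H2B-EGFP minus sfGFP-ZLD) and in Zf5 (orange triangles) for the 19 named genes in which these differences were unequal. Wild type runs from 6.33 for Polr3A to -6.32 for pdgy, while Zf5 lies between -0.85 and 2.42. Cyp4p2, CG12643, CG4467, Sdic3, Sdic2, CG13937 and cry did not pass the filter within Zf5.

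By position, calls were found on every large chromosome arm. They made up 9.86% of tested genes on X, 6.12% on 2L, 8.09% on 2R, 8.10% on 3L, 8.70% on 3R and 11.7% of the 60 on chromosome 4. Of the 36 genes in either on and off description, 13 lay on X, 10 on 2R, 6 on 3R, 4 on 2L and 3 on 3L. Of the 7160 genes tested, 1258 lay on X, 1433 on 2R, 1689 on 3R, 1324 on 2L and 1371 on 3L. Whether the 2 distributions differ was not tested. Within 500 kb of the start of zld, 10 of 77 tested genes were called (12.99%), Sdic2 and Sdic3 among them, and within 1000 kb 11 of 121 (9.09%), against 8.2% of all genes. Annotated transposons of the reference genome overlapped 8.03% of tested genes, 11.8% of called genes and 2 of the 26 all-or-none genes (7.69%), a pogo element in CG14767 and a roo element in pdgy. In tty the annotation holds an INE-1 element. Insertions particular to either stock were not analysed here.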

How the data were processed

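The deposited values are TPM per gene, 1 column for each of 26 libraries. The unit was read from the values, which sum to 1000000 in each library as deposited, and the submitters' processing notes name kallisto, limma, edgeR and the genome build BDGP6 without roles. TPM keeps no depth, so no counting interval is given, and within a library a gain in one abundant transcript lowers the values of the rest. Strand use is not given in the sources used here.

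Genes with at least 1 TPM in 3 or more of the libraries fitted were tested on log2(TPM + 1), which understates the change of low genes, with limma 3.58.1 in R 4.3.3 (lmFit, eBayes with trend) and Benjamini-Hochberg adjustment at 0.05. Fits were made of H2B-EGFP against sfGFP-ZLD, the same with the stage score as covariate, Zf5 day 2 against day 1, and their interaction over 18 libraries. Scripts were tested on simulated data. Symbols were matched to Ensembl 115 (13999 directly, 205 by synonym, 16 not).

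All all-or-none genes are named, with the 10 largest rises and falls among called genes that do not overlap, 6 slopes each way, 6 interaction genes and up to 4 called members of a list. Genes, lists and tests were chosen with earlier results of these data known. Alternatives covered pseudocount, filter, scaling, trend, score, border, each library in turn and a replicate block.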

Additional observations from a re-analysis of the deposited data

Results flagged for a closer look

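In 9 of 74 tests for a single outlying library among the 6 H2B-EGFP libraries, 1 library stood apart from the rest by Dixon's 95% limit, where chance flags about 1 in 20. Replicate 3 was low in Cyp4p2, at 8.40 TPM against 45.6 to 74.7 TPM in the other 5 libraries. Replicate 1 was high in CG33655, at 11.4 TPM against 4.99 to 6.84 TPM, and low in plu, at 31.9 TPM against 42.6 to 46.5 TPM, and in w, at 0.0473 TPM against 0.376 to 0.620 TPM. Replicate 2 was high in CG34323, at 0.398 TPM against at most 0.121 TPM. Replicate 5, which has the highest stage score of its group, was high in Ptr, at 99.4 TPM against at most 2.33 TPM, in nerfin-1, at 0.364 TPM against at most 0.0930 TPM, and in Drat, at 0.371 TPM against at most 0.0575 TPM. It was low in CG7627, at 8.17 TPM against 90.3 to 303 TPM.

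In 19 named genes the difference of day 2 minus day 1 in wild type (H2B-EGFP minus sfGFP-ZLD) was unlike that in Zf5, by limma's interaction term. These genes were named for a large or all-or-none difference between the same wild-type libraries, so the term in part repeats that difference. Cyp4p2, CG12643, CG4467, Sdic3, Sdic2, CG13937 and cry did not pass the filter within Zf5. The wild-type difference exceeded that of Zf5 by 6.15 in Polr3A, 5.52 in CG12219, 5.47 in Cyp4p2, 4.92 in CG12643, 4.09 in CG6567, 3.58 in Mfe2, 3.40 in Sdic3, 3.31 in CG4467 and 3.14 in CG30054. Wild type minus Zf5 was -6.79 in CG11200, -5.94 in pdgy, -5.69 in CG13937, -5.42 in CG14767, -5.02 in tty, -3.91 in Drep1, -3.36 in CG34323, -3.19 in cry, -2.83 in Sdic2 and -2.59 in CG10962. Limma adjusted p-values ran from 5.44e-08 for CG13937 to 0.0314 for CG4467.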

How the results depend on the processing

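Genotype and day change together, n is 3 in sfGFP-ZLD, and TPM carries no depth, so low values have no counting limit. Median-ratio scaling gave 186 higher calls between the groups, and 902 higher and 1008 lower with the stage score. The early zygotic score alone gave 396 lower calls and the maternal score alone 1007. Replicate numbers do not pair the libraries: deviations of the same-numbered libraries correlated at 0.30, 0.72 and -0.75. A replicate block left 3 libraries of each group, with 0 higher and 0 lower calls (1078 genes at an unadjusted p under 0.05), 518 higher with the score and 1276 rising with it, and all 43 called named genes lost their call. A filter of 1 TPM in every library left 10 genes in the test of wild type against Zf5 and fewer genes tested. All-or-none genes numbered 23 in H2B-EGFP with a border of 2 TPM and 6 in sfGFP-ZLD with 0.5 TPM.

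Leaving out 1 library gave 53 to 840 higher and 34 to 375 lower calls, 495 to 1551 and 151 to 743 with the score, 1905 to 2216 rising and 2126 to 2797 falling with it, 28 to 45 for the interaction, 14 to 20 and 11 to 12 all-or-none genes, and 0 for Zf5. No called named gene changed direction under any alternative run. A pseudocount of 5 ended the calls of Syt4, nerfin-1, CG32857, vis and Hsp68, at limma adjusted p-values of 0.0509 to 0.0543. A pseudocount of 0.1 and median-ratio scaling each ended that of Hsp68 (0.0589 and 0.0527). The cause was not tested.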

Other observations

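Genes outside the naming rule, chosen after their values were seen, also had unequal differences of day 2 minus day 1 in wild type and in Zf5. Prosalpha1R, a gene related to the proteasome subunit alpha1, averaged 621 TPM in H2B-EGFP and 175 TPM in sfGFP-ZLD, with wild type minus Zf5 at 1.48 (SE 0.24, limma adjusted p = 0.00414). The annexin gene AnxB11 averaged 71.7 TPM in H2B-EGFP and 15.8 TPM in sfGFP-ZLD (2.43, SE 0.40, limma adjusted p = 0.00534). GstE10, a neighbour of GstE1 that overlaps it on the other strand, averaged 4.56 TPM in H2B-EGFP and was listed at 0 in sfGFP-ZLD (2.41, SE 0.51, limma adjusted p = 0.0463). Ir21a, a receptor of temperature-sensing neurons, averaged 0.118 TPM in H2B-EGFP and 4.47 TPM in sfGFP-ZLD (-2.45, SE 0.36, limma adjusted p = 0.0016). Pde6, a cyclic GMP phosphodiesterase, averaged 0.760 TPM in H2B-EGFP and 17.6 TPM in sfGFP-ZLD (-3.34, SE 0.70, limma adjusted p = 0.039).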
